A study of Mus musculus with 12 samples.

Results

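Small RNA of exosomes released by mouse ovarian granulosa cells was sequenced in 12 libraries, and 5 of the 637 miRNA entries in the deposited tables are described here. They are mmu-miR-143-3p, mmu-miR-145a-5p, mmu-miR-199a-5p, mmu-miR-214-3p and the joined entry mmu-miR-199a-3p>mmu-miR-199b-3p. They were chosen by name as miRNAs of stromal cells, with earlier results of these data known. The joined entry was the only one whose name holds miR-199a-3p. All 5 passed the filter of at least 10 counts over the 12 libraries, as did 547 entries in all.

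The cells of all 4 groups were kept for 24 h in DMEM/F12 medium free of exosomes and then cultured for 48 h, with 3 libraries a group. The CON group was left untreated. Ferric citrate, a salt that loads cells with iron, was added at 100 μM in the other 3 groups, alone in FAC. In DFO it was combined with the iron-binding drug deferoxamine mesylate at 100 μM, and in VE with VITE (vitamin E), a lipophilic antioxidant, at 200 μM. By the study's methods, the cells came from female Kunming mice primed with gonadotropin. A follicular fluid mixture taken from the ovaries was treated with trypsin and passed through a cell strainer, and no cell sort is named. The labels do not say whether the 3 libraries of a group came from separate cultures or animals, so p-values measure only the spread between these libraries, which may be technical. In exosomes of a whole culture, fewer cells of a type and less RNA per cell cannot be told apart.

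These miRNAs are best known from cells of mesenchymal origin. Mir143 and Mir145a lie beside each other within the long noncoding RNA gene Carmn and are abundant in smooth muscle cells, pericytes and fibroblasts, where they act on genes of the contractile state. Mir199a-2 and Mir214 lie together within Dnm3os, a noncoding RNA transcribed from the opposite strand of an intron of Dnm3, and mark mesenchyme and activated fibroblasts. Mir199a-1 lies within Dnm2 and Mir199b within Dnm1, and these neighbours were read from the GRCm38.p6 gene table. In the ovary, theca and stromal cells are of the mesenchymal kind, whereas granulosa cells form the epithelium-like layer around the oocyte. A mature miRNA is cut from 1 arm of a hairpin, named 5p or 3p, and recognises its targets mainly by its seed, bases 2 to 8.

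RefSeq (GRCm38.p6) gave the mature sequences of 3 of the 5 entries, and miR-143-3p and miR-145a-5p are given by name. The sequences are shown because they decide which hairpins a read can be assigned to. Capitals mark the seed.
miR-199a-5p: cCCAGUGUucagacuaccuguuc
miR-199a-3p: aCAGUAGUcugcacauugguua
miR-199b-3p: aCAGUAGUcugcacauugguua
miR-214-3p: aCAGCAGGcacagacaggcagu
miR-761: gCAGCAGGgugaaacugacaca
miR-199a-3p and miR-199b-3p were identical at 22 of 22 bases, and the deposited tables held them as 1 entry whose reads cannot be split between Mir199a-1, Mir199a-2 and Mir199b. The whole of miR-199a-5p, 23 bases long, stood in both the Mir199a-1 and the Mir199a-2 hairpin. Its longest unbroken run shared with the Mir199b hairpin was 13 bases. Such a run ends at any mismatch, so it does not show how alike the 5p arms of miR-199a and miR-199b are. The 3 printed members thus held 3 different seeds. miR-214-3p and miR-199a-3p matched at 8 of 22 positions when set side by side without gaps. The seed of miR-214-3p was shared with 1 other mature miRNA of the RefSeq table, miR-761, for which no entry was found in the tables analysed here. The RefSeq table held no mature miR-199b-5p, which does have an entry in the deposited tables, so its seed could not be compared.

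The share of miRNA reads differed between the groups and set the scale of every value below. miRNA counts summed to between 452021 and 7565362 a library, or 1.997% to 4.998% of the total that the deposited RPM divide by in CON, 21.6% to 30.4% in FAC, 5.53% to 19.9% in DFO and 9.20% to 14.6% in VE. Levels are therefore given either as normalized CPM, relative to the miRNA counts of a library after TMM scaling, or as the deposited RPM, relative to that total, called the library total here. Which reads the total counts is not given in the sources used here, so these percentages and RPM are relative to a total of unknown make-up. The floor of detection was set at 3 counts, which equalled 0.351 to 7.90 normalized CPM, and such floors cover counting error only. A mature miRNA is sequenced whole, so counts were compared between miRNAs with no length correction.

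miR-143-3p made up nearly all of the reads of the 5 entries. It held 98.1% to 99.9% of their counts in each of the 12 libraries and was the ninth most abundant of the 547 tested entries by mean normalized CPM, with ranks from 3 to 13 in single libraries. The other 4 were far lower by the same measure, with rank 99 for miR-145a-5p, 117 for the joined miR-199a-3p and miR-199b-3p entry, 148 for miR-214-3p and 161 for miR-199a-5p. Together the 5 entries took 6.17% ± 4.29 (SD, n = 3) of the miRNA counts in the CON group, 5.50% ± 1.959 in FAC, 3.12% ± 1.03 in DFO and 1.60% ± 0.286 in VE. Without miR-143-3p they took 0.0557% ± 0.0450 (SD, n = 3) in CON, 0.0660% ± 0.0232 in FAC, 0.0395% ± 0.0191 in DFO and 0.0259% ± 0.00380 in VE.

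**Figure D1:**
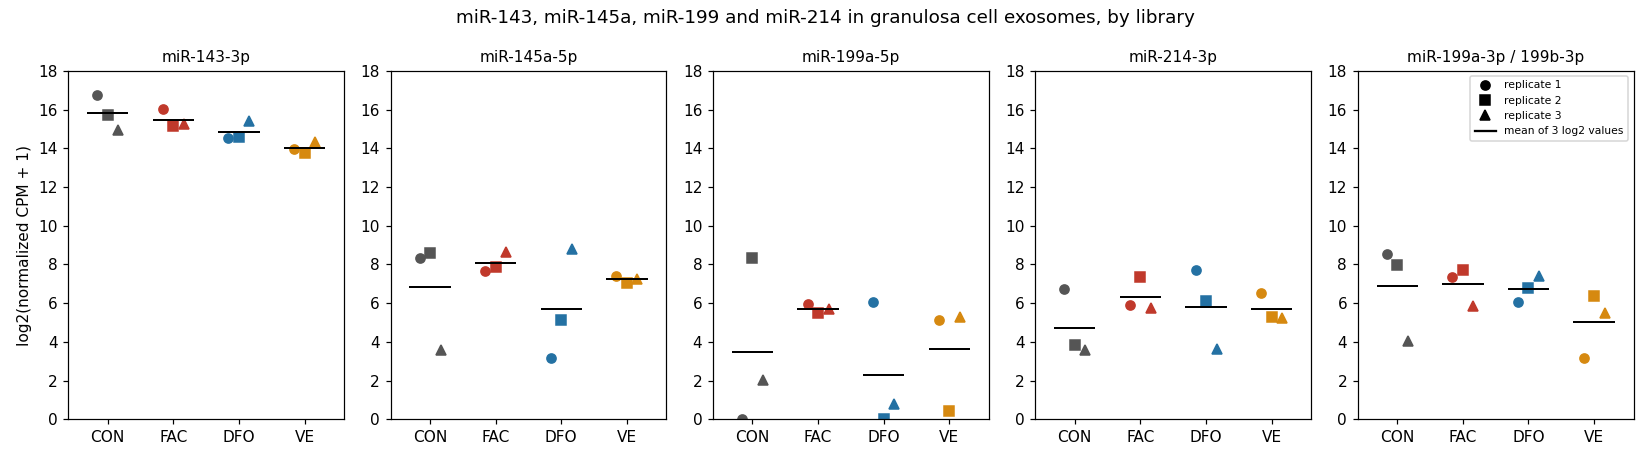
Level of each entry in the 12 libraries, as log2(normalized CPM + 1), with 1 symbol for each library and a line at the mean of the 3 log2 values of a group. miR-143-3p lay between 13784 and 108430 normalized CPM in all libraries, while miR-199a-5p was at 0 in CON replicate 1 and DFO replicate 2.

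miR-143-3p was highest in the CON group and lowest in the VE group relative to the other miRNAs. Its normalized CPM were 108430, 54714 and 30994 in CON replicates 1 to 3, from 132381, 20782 and 19711 counts. In the FAC replicates they were 66233, 36692 and 39227, from 565520, 274765 and 193144 counts. In the DFO replicates they were 23594, 24384 and 43417, from 68484, 135986 and 57847 counts, and in the VE replicates 16054, 13784 and 20573, from 35541, 37816 and 65461 counts. All 3 VE libraries lay below every CON, FAC and DFO library, and CON replicate 1 stood above all others. In the order of group means, 64713 ± 39674 (SD, n = 3) in CON, 47384 ± 16373 in FAC, 30465 ± 11224 in DFO and 16804 ± 3456 in VE, the libraries of CON overlapped with those of FAC and those of FAC with those of DFO. The pair of DFO and VE was not tested.

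The test of any difference among the 4 groups singled out miR-143-3p among the 5 (edgeR's quasi-likelihood F test, Benjamini-Hochberg adjusted p = 0.00161). The other 4 had adjusted p of 0.549 for the joined miR-199a-3p and miR-199b-3p entry to 0.892 for miR-214-3p in edgeR. Of all 547 entries, 18.5% had a p under 0.05 in this test, and 1 of the 5 did.

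In comparison with the CON group, miR-143-3p was lower in the VE group. The threshold for each pair of groups was a fold change of at least 1.5 with an unadjusted p under 0.05, and miR-143-3p passed it against both CON and FAC. The log2 fold change was -1.95 (standard error 0.42, 95% interval -2.77 to -1.12, edgeR's quasi-likelihood test, Benjamini-Hochberg adjusted p = 0.00103), and the median over the 158 entries counted in every library was -0.01. Against the FAC group, the log2 fold change of VE was -1.50 (standard error 0.41, 95% interval -2.31 to -0.68, adjusted p = 0.0566 in edgeR), beside a median of -0.02 over the 158 entries. Without CON replicate 1 the difference from CON was -1.35 (adjusted p = 0.132 in edgeR), and without VE replicate 2 it was -1.82 (adjusted p = 0.0564).

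Relative to the library total, miR-143-3p did not separate VE from CON. Its RPM were 5463, 918 and 797 in CON replicates 1 to 3, 22761, 11396 and 7878 in FAC, 2809, 5536.5 and 2330.1 in DFO, and 1468, 1558.5 and 2701 in VE. The VE libraries lay inside the range of CON and below every FAC library. On log2(RPM + 1) the VE group differed from CON by 0.21 (standard error 0.70, limma, adjusted p = 1) and from FAC by -2.79 (standard error 0.70, adjusted p = 0.147 in limma). The 158 entries counted in every library moved by a median of 1.94 and -1.24 in these comparisons on the same scale, and miR-143-3p differed from those medians by -1.74 and -1.55. The lower level in VE than in FAC was past the threshold on both scales, and the lower level in VE than in CON only relative to the miRNA counts.

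Of the 5 blood cell miRNAs tested, 2 passed the threshold upward in the VE group, against CON and against FAC, and 0 downward in edgeR. Of all tested entries, 10.4% and 9.32% passed it in these comparisons in either direction. The joined miR-486a-5p and miR-486b-5p entry, miRNAs abundant in erythroid cells and muscle, took 8.25% to 16.8% of the miRNA counts in VE, 2.68% to 5.46% in CON, 0.779% to 9.68% in FAC and 1.76% to 8.26% in DFO. Its log2 fold change was 1.57 in VE against CON (edgeR, adjusted p = 0.00821) and 1.67 in VE against FAC (adjusted p = 0.00453), and the erythroid miR-451a also passed the threshold upward in both comparisons (1.80 and 1.94, adjusted p = 0.460 and 0.444 in edgeR). miR-150-5p, a lymphocyte miRNA and the third most abundant of the list, stood at -1.23 in VE against CON and 0.88 in VE against FAC (adjusted p = 0.716 and 0.776 in edgeR), short of the threshold. Of the 8 blood cell miRNAs listed, 7 had an entry. The summed level of the list was 27090 to 55208 CPM before TMM scaling in CON, 8229 to 97508 in FAC, 17658 to 83606 in DFO and 83287 to 168570 in VE, while miR-142a-3p, miR-144-3p and miR-223-3p had 1, 1 and 17 counts in all. With the miR-486 entry left out of the total, miR-143-3p took 1.40% to 2.13% of the remaining counts in VE, 2.89% to 11.4% in CON and 3.95% to 7.53% in FAC. The part of the miR-486 entry in the values of miR-143-3p was not tested.

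**Figure D2:**
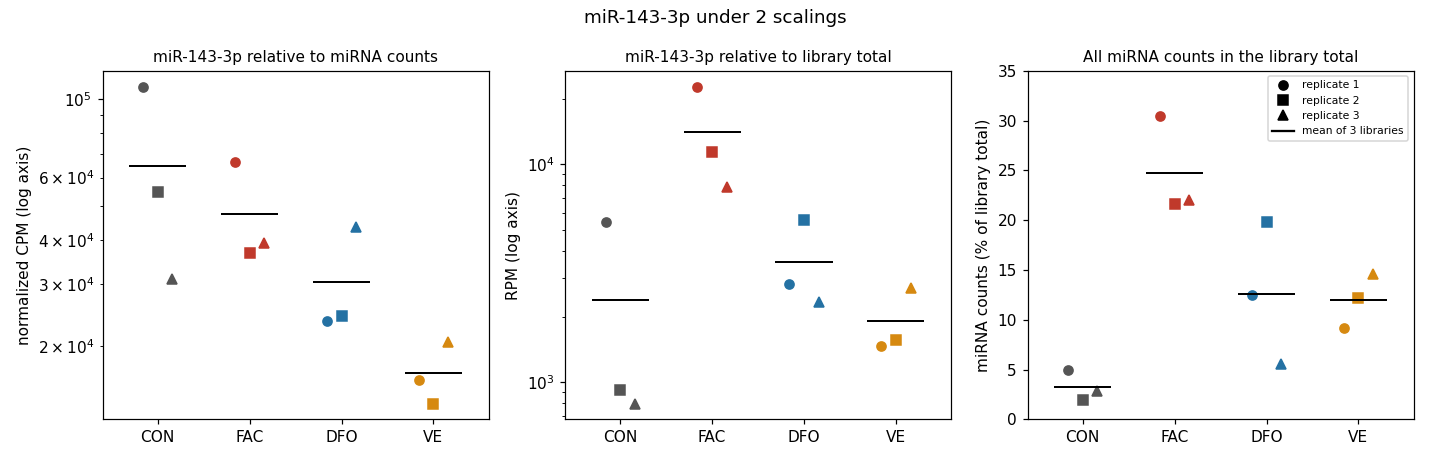
miR-143-3p in normalized CPM (left, log axis) and RPM (middle, log axis), and all miRNA counts as a percent of the library total (right), with 1 symbol for each library and a line at the group mean. VE lies below all other libraries in the left panel, at 13784 to 20573 normalized CPM, and within the CON range of 797 to 5463 RPM in the middle panel.

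With deferoxamine and iron, miR-143-3p was also lower than in CON, and this call rested on 1 control library. The DFO group was lower than CON by a log2 fold change of -1.09 (standard error 0.41, edgeR, adjusted p = 0.373), past the threshold, but DFO replicate 3 at 43417 normalized CPM lay above CON replicate 3 at 30994. Without CON replicate 1 the log2 fold change was -0.49 (edgeR, adjusted p = 0.768), and on log2(RPM + 1) it was 1.06 (limma, adjusted p = 0.464). DFO against FAC gave -0.64 (standard error 0.41, edgeR, adjusted p = 0.458), with a 95% interval from -1.44 to 0.16.

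Iron alone did not change miR-143-3p relative to the other miRNAs beyond its spread. The log2 fold change of FAC against CON was -0.45 (standard error 0.41, 95% interval -1.25 to 0.35, edgeR, adjusted p = 0.607), and it was 0.15 without CON replicate 1. In RPM, all 3 FAC libraries lay above all 3 CON libraries, with a difference of 3.00 on log2(RPM + 1) (limma, adjusted p = 0.00278). The median of the 158 entries counted in every library moved by 2.98 on that scale, and miR-143-3p exceeded it by 0.02. On the counts in edgeR, its difference from the median of these entries was -0.30.

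miR-145a-5p, the partner of miR-143 in Carmn and a regulator of smooth muscle differentiation, was far less abundant and uneven within the groups. It had 397, 148 and 7 counts in the CON replicates, 1701, 1763 and 1955 in FAC, 23, 189 and 596 in DFO and 376, 356 and 473 in VE. Its mean level was 242 ± 203 normalized CPM (SD, n = 3) in CON, 277 ± 105 in FAC, 163 ± 247 in DFO and 149 ± 20.0 in VE. The VE libraries lay close together and below every FAC library, whereas the CON and DFO libraries spanned 11.0 to 389.7 and 7.92 to 447 normalized CPM. No comparison passed the threshold in edgeR, with log2 fold changes from -0.89 in VE against FAC to 0.20 in FAC against CON and standard errors of 1.09 to 1.10. Without DFO replicate 3, DFO passed it against FAC (-3.72, adjusted p = 0.193) and against CON (-3.53, adjusted p = 0.522), and without CON replicate 3 or FAC replicate 3 the value of FAC against CON turned to -0.28 and -0.15.

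The ratio of the neighbours miR-143-3p and miR-145a-5p was not constant. It ranged from 94.5 in VE replicate 1 to 2978 in DFO replicate 1, with a median of 148 over the 12 libraries. CON replicate 3, with a ratio of 2816, and DFO replicate 1 were the libraries with 7 and 23 counts of miR-145a-5p. In the VE group the ratio lay between 94.5 and 138.

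miR-199a-5p, a miRNA of fibroblasts and hypoxia responses, was the least abundant of the 5. Its counts were 0, 123 and 2 in the CON replicates, 514, 327 and 248 in FAC, 191, 0 and 1 in DFO and 76, 1 and 121 in VE. In every group but FAC, libraries with 76 or more counts stood beside libraries with 2 or fewer, and no library had a count between these. Its mean was 109 ± 186 normalized CPM (SD, n = 3) in CON, 51.4 ± 8.31 in FAC, 22.2 ± 37.8 in DFO and 24.2 ± 20.8 in VE. None of the 5 comparisons passed the threshold in edgeR (adjusted p from 0.630 to 0.794). Without CON replicate 2, the library with 323.8 normalized CPM, the log2 fold change of FAC against CON turned from -1.08 to 5.19 in edgeR, short of the threshold, and those of DFO and VE against CON turned to 4.10 and 3.99. Without DFO replicate 1, DFO passed the threshold against FAC (-7.50, adjusted p = 0.237 in edgeR) and against CON (-8.64, adjusted p = 0.364), with 0 and 1 counts left in that group.

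The joined entry of miR-199a-3p and miR-199b-3p, an arm known to target Met, was counted in all 12 libraries. It had 456, 96 and 10 counts in the CON replicates, 1401, 1542 and 284 in FAC, 193, 602 and 224 in DFO and 18, 228 and 141 in VE. Mean levels were 214 ± 182 normalized CPM (SD, n = 3) in CON, 142.6 ± 76.4 in FAC, 114 ± 51.1 in DFO and 45.2 ± 37.5 in VE, and the ranges of all 4 groups overlapped. VE against CON gave a log2 fold change of -2.24 (standard error 1.31, edgeR, adjusted p = 0.524) with a 95% interval from -4.81 to 0.33. VE against FAC gave -1.66 (standard error 1.28, edgeR, adjusted p = 0.521). Without CON replicate 3, the library with 10 counts, VE against CON passed the threshold (-2.85, edgeR, adjusted p = 0.465).

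miR-214-3p, transcribed with miR-199a-2 in Dnm3os, showed no order of the groups. Its counts were 130, 5 and 7 in the CON replicates, 509, 1204 and 258 in FAC, 616, 379 and 15 in DFO and 205, 104 and 116 in VE. Means were 43.55 ± 54.5 normalized CPM (SD, n = 3) in CON, 90.9 ± 60.6 in FAC, 97.1 ± 104 in DFO and 55.7 ± 32.0 in VE, and all groups overlapped. Log2 fold changes in edgeR lay between -0.71 in VE against FAC and 1.15 in DFO against CON, with standard errors of 1.47 to 1.49. The 95% interval of DFO against CON ran from -1.77 to 4.06 and that of VE against FAC from -3.60 to 2.18.

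Relative to the miRNA counts, 0 or 1 of the 5 entries passed the threshold in each comparison. In FAC against CON, 0 of 5 passed the threshold in edgeR, beside 9.51% of all tested entries, and 0 of the 5 had an unadjusted p under 0.05. There 0 of 5 had libraries that did not overlap in normalized CPM, beside 13.3%. In DFO against FAC, 0 of 5 passed the threshold in edgeR, beside 12.2%, and 0 of the 5 had an unadjusted p under 0.05. Here 0 of 5 did not overlap, beside 16.6%. DESeq2 also called 0 in both comparisons, but it gave no p for miR-199a-5p. In VE against FAC, 1 of 5 passed the threshold in edgeR, beside 9.32%. Of the 5, 3 did not overlap, beside 14.6%, namely miR-143-3p, miR-145a-5p and miR-199a-5p, all lower in VE. In DFO against CON, 1 of 5 passed it, beside 7.68%, and 0 did not overlap, beside 6.03%. In VE against CON, 1 of 5 passed it, beside 10.4%, and 1 did not overlap, beside 13%. The entry past the threshold was miR-143-3p each time. The median log2 fold change of the 5 was -0.45, -0.64, -1.08, -0.91 and -1.95 in these comparisons, beside -0.15, -0.10, -0.02, -0.24 and -0.01 over the 158 entries counted in every library. Over all 547 entries the medians were 1.38, -0.66, -0.63, 0.00 and 0.00, a set that holds many entries at 0 in a whole group. The comparisons share the FAC or the CON libraries and are not independent.

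On the scale of the library total the calls were different. In FAC against CON, all 5 were past the threshold on log2(RPM + 1) in limma, with differences of 2.78 to 3.76, beside 35.6% of all tested entries, and 4 of 5 did not overlap in RPM, beside 31.4%. In DFO against FAC, 3 of 5 were past it, beside 22.5%, and the same 3 did not overlap, beside 16.6%, namely miR-143-3p at -1.94, miR-145a-5p at -3.31 and miR-199a-5p at -2.86. In VE against FAC, 4 of 5 were past it, beside 18.8%, with miR-214-3p the exception at -1.81, and all 5 lay lower in VE with no overlap, beside 24.5%. In DFO against CON and VE against CON, 0 of 5 were past it in limma, beside 15.4% and 17.7% of all tested entries, and 0 of the 5 had an unadjusted p under 0.05. All 195 entries past the threshold in FAC against CON on this scale were higher in FAC, whereas 13 were higher and 39 lower in edgeR. The calls in RPM moved with the miRNA share of the library totals, and its part in them was not tested.

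**Figure D3:**
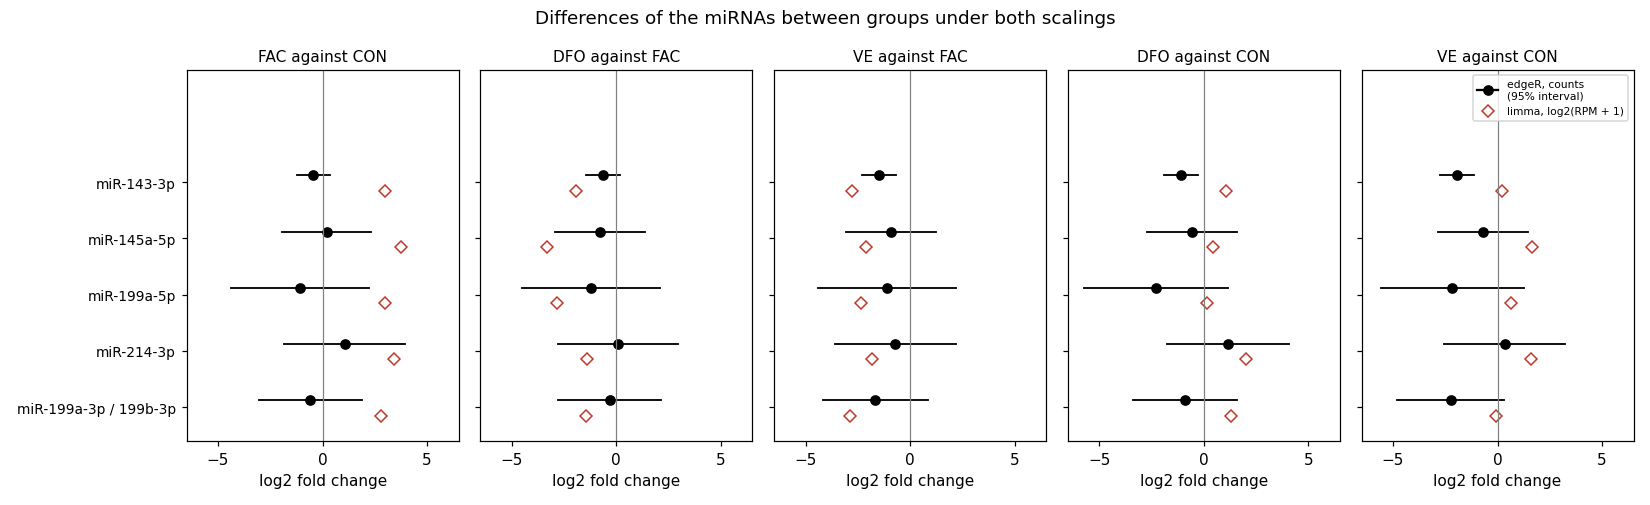
Log2 fold changes of the 5 entries in each comparison, from edgeR on the counts (black, with 95% intervals) and from limma on log2(RPM + 1) (red, open). Intervals of miR-143-3p exclude 0 in VE against FAC, DFO against CON and VE against CON, and the RPM values of FAC against CON lie between 2.78 and 3.76.

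The other arms of the same hairpins were compared with the 5 entries next. Of 6 listed arms and copies, 5 had an entry of their own and 4 were tested. miR-143-5p had 391 counts in all against 1607438 of miR-143-3p, in 4 libraries. It had 88 counts in CON replicate 1, 148 and 66 in FAC replicates 1 and 2, 89 in DFO replicate 2 and 0 in the other 8, including all 3 VE libraries. It passed the threshold downward in VE against CON and against FAC (edgeR, adjusted p = 0.434 and 0.505), although CON and FAC also held libraries at 0. Of all tested entries, 10.4% and 9.32% passed it in these comparisons in either direction. Against the floor of 3 counts in the shallowest VE library, the mean of miR-143-5p was at least 17.7-fold lower in VE than in CON and at least 6.43-fold lower than in FAC. The CON mean rested on replicate 1 alone, at 72.1 normalized CPM, and without that library CON was at 0 as VE was and no fold can be given.

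The arms of miR-145a were closer to each other. miR-145a-3p had 210, 3 and 8 counts in the CON replicates, 1151, 773 and 2 in FAC, 251, 150 and 103 in DFO and 180, 57 and 701 in VE. The 5p arm was above the 3p arm in 9 of 12 libraries and the 3p arm above in CON replicate 3, DFO replicate 1 and VE replicate 3. In the 10 libraries where both were over 3 counts, the 5p to 3p ratio ran from 0.0916 to 6.25 with a median of 1.68, and FAC replicate 3 held 1955 counts of one arm and 2 of the other. miR-145a-3p passed no threshold in any of the 5 comparisons in edgeR.

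For miR-199a, the joined 3p entry exceeded the 5p arm in 10 of 12 libraries, with 5195 and 1604 counts in all. The 5p arm was above in CON replicate 2 and VE replicate 1. miR-214-3p exceeded miR-214-5p in 11 of 12 libraries, with 3548 and 194 counts in all, and in DFO replicate 3 it had 15 counts beside 100. miR-199b-5p had 39 counts in all, 29 of them in FAC replicate 2, and miR-145b had 1 count, also in FAC replicate 2.

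**Figure D4:**
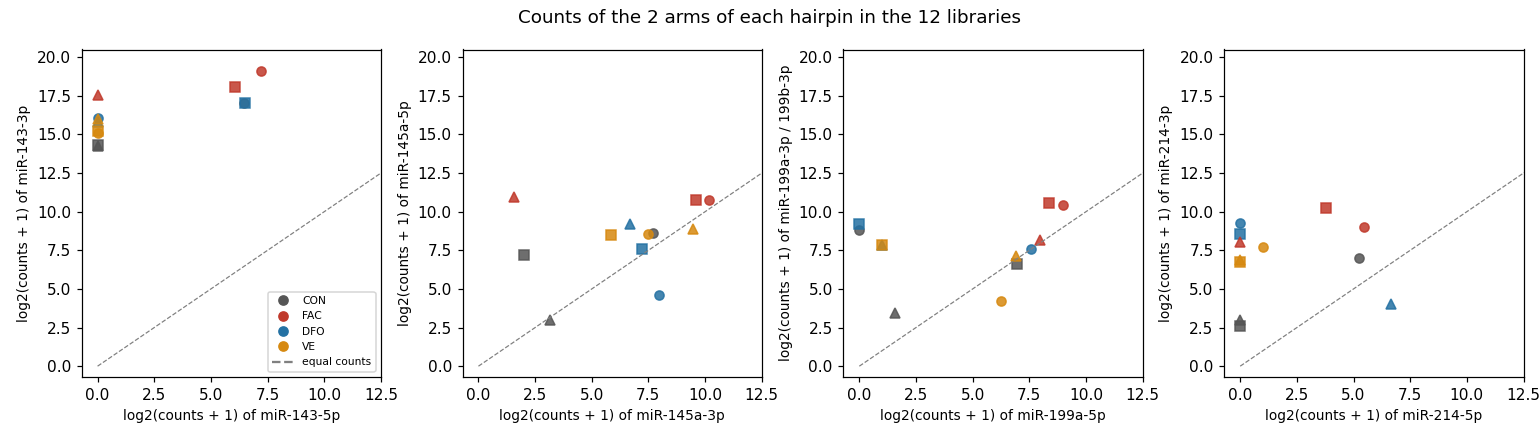
Counts of both arms in each of the 12 libraries, as log2(counts + 1), coloured by group with circles, squares and triangles for replicates 1 to 3 and a dashed line at equal counts. The joined miR-199a-3p entry also holds miR-199b-3p. miR-143-5p is at 0 in 8 of 12 libraries, and points below the line are libraries in which the arm on the horizontal axis had more counts.

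The 5 entries did not move as 1 group over the libraries. The points of the following correlations are 12 libraries that share depth and normalization, on log2 CPM with a prior count of 2, and the values are a description. miR-143-3p and the joined miR-199a-3p entry had the highest Pearson's r among the pairs, 0.69 (Spearman's rho 0.71), followed by miR-145a-5p with the joined entry at 0.44 and miR-143-3p with miR-145a-5p at 0.42. miR-199a-5p and miR-214-3p, neighbours in Dnm3os, had an r of 0.11, and miR-199a-5p with the joined entry that holds its 3p arm -0.11. miR-199a-5p had 0 counts in 2 libraries and at most 2 in 3 others, under the floor, which limits what these values can show. The lowest r was -0.16, between miR-145a-5p and miR-214-3p.

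The entries most like each member were sought among the tested entries counted in all 12 libraries, 157 or 158 of them. For miR-143-3p they were let-7i-5p (r = 0.80), miR-21a-5p (0.70) and the joined miR-199a-3p entry, of which 2 were also among the closest 3 by Spearman's rho. miR-145a-5p was closest to miR-127-3p (0.94), miR-484 (0.93) and miR-100-5p (0.86), the same 3 entries by Spearman's rho, and miR-127-3p and miR-100-5p are on the list of other mesenchymal miRNAs. For the joined entry they were miR-1843a-5p (0.77), miR-152-3p (0.76) and miR-28a-3p (0.74), and none of these was among the closest 3 by rank. miR-199a-5p came closest to miR-192-5p (0.67), miR-191-5p (0.65) and miR-196a-1-3p (0.59), of which 2 stayed by rank. miR-214-3p came closest to miR-30d-5p (0.64), miR-222-3p (0.63) and miR-30a-5p (0.61), of which 1 stayed by rank.

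Other miRNAs of mesenchymal cells were counted in the same comparisons. All 11 on the list were tested, and in VE against CON 1 passed the threshold upward (miR-411-5p, with 295 counts in 5 libraries) and 0 downward in edgeR, beside 10.4% of all tested entries in either direction. In VE against FAC 0 passed, beside 9.32%. miR-152-3p stood at -1.82 in VE against CON and -1.79 in VE against FAC (adjusted p = 0.533 and 0.521 in edgeR), and miR-21a-5p at -0.85 in both (adjusted p = 0.630 and 0.521), all short of the threshold. Whether the list differed from miR-143-3p was not tested. miR-10b-5p, the most abundant of them, was at 39698 ± 16724 normalized CPM (SD, n = 3) in CON, 42514 ± 7672 in FAC, 21449 ± 6421 in DFO and 35695 ± 12093 in VE. In DFO it passed the threshold downward against FAC (log2 fold change -0.99, edgeR, adjusted p = 0.248) and CON (-0.89, adjusted p = 0.625). So did miR-22-3p (-2.04 and -1.60, adjusted p = 0.189 and 0.641 in edgeR). These were 2 of the 11, with 0 upward, beside 12.2% and 7.68% of all tested entries in either direction. miR-140-3p, a cartilage miRNA, passed the threshold upward in FAC against CON (2.10, edgeR, adjusted p = 0.497). It was 1 of the 11, with 0 downward, beside 9.51% of all tested entries. miR-125b-5p lay between 5039 and 15268 normalized CPM and miR-100-5p between 561 and 4577, with no comparison past the threshold.

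Lists for other cell types were counted in the same libraries. Of 10 miRNAs linked to gonads and granulosa cells, 8 had an entry, led by miR-351-5p, miR-322-3p and miR-224-5p, with miR-351-5p at 1066.8 to 1318 normalized CPM in the group means, while miR-202-5p was counted in 1 library and miR-202-3p in 4. miR-322-3p and miR-503-5p passed the threshold downward in DFO against FAC (adjusted p = 0.382 and 0.273 in edgeR), beside 12.2% of all tested entries in either direction. miR-503-5p also passed it downward in DFO against CON (adjusted p = 0.373 in edgeR), beside 7.68%. Of 6 muscle miRNAs, miR-206-3p and miR-1a-3p had entries, with summed levels of 129 to 829 CPM over all libraries. miR-1a-3p passed the threshold downward in FAC, DFO and VE against CON (log2 fold changes -5.43, -3.69 and -4.15, adjusted p = 0.0994, 0.540 and 0.289 in edgeR), with 0 to 587 counts in CON. miR-206-3p passed it upward in DFO against CON (2.12, adjusted p = 0.641 in edgeR). Of all tested entries, 9.51%, 7.68% and 10.4% passed it in FAC, DFO and VE against CON in either direction. Among 12 epithelial miRNAs, led by miR-183-5p, miR-182-5p and miR-375-3p, 11 were tested and 5 passed it downward in VE against CON, beside 10.4% of all tested entries in either direction. These were miR-203-3p (adjusted p = 0.0252 in edgeR) and miR-200a-3p, miR-200b-3p, miR-205-5p and miR-429-3p (adjusted p of 0.434 to 0.460), with counts in 11, 5, 6, 2 and 3 libraries. The miRNAs leading the list pointed upward in VE against CON, short of the threshold. Their log2 fold changes were 0.32 for miR-183-5p, 0.63 for miR-182-5p and 1.499 for miR-375-3p (adjusted p = 0.981, 0.692 and 0.593 in edgeR). miR-203-3p also passed the threshold downward in VE against FAC, miR-205-5p downward in DFO against CON and miR-182-5p upward in FAC against CON. Of all tested entries, 9.32%, 7.68% and 9.51% passed it in these comparisons in either direction. The summed level of the whole epithelial list was 3222 to 8430 CPM in VE and 2073 to 6071 in CON. The endothelial miR-126a-3p had 1 to 212 counts a library and passed in none. The part of these other lists in the values of miR-143-3p was likewise not tested.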

How the data were processed

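Small RNA of granulosa cell exosomes was sequenced by the authors on an Illumina HiSeq instrument. For each of the 12 libraries the authors deposited a table of read counts per miRNA entry, not normalized, and a table of RPM, in which each count is scaled to 1 total of its library. The deposited RPM tables carry another name, but count and value gave 1 constant total per library (22631206 to 24845945 reads), so no length enters. Which reads this total counts is not given in the sources used here. The submitters' processing notes name the genome build mm9, and the aligner, counter and miRNA database are not given in the sources used here. No coordinates are printed, since the reference tables are of GRCm38.

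Groups came from the sample titles. The members and the marker lists were chosen with earlier results of these data known. Entries needed at least 10 counts in all 12 libraries together, which 547 of 637 had, and were scaled by TMM and fitted in 1 model of 4 groups with edgeR 4.0.16 (quasi-likelihood test, R 4.3.3), and p-values were adjusted by Benjamini-Hochberg over all 547. An entry passed the threshold at a fold change of at least 1.5 and an unadjusted p under 0.05, the cut-offs the study applied to its miRNAs. RPM were tested with limma 3.58.1 on log2(RPM + 1), where a fold change understates that of low entries. Alternatives were RLE factors, no composition factor, library totals, DESeq2 1.42.0, no filter, filterByExpr (312 entries), only the compared groups, a replicate block and leaving out each library. Named beside the members were the other arms of their hairpins, seed mates, the 3 entries most like each member and the 3 most abundant of each list. Further list entries were named after their values were seen, because they passed the threshold or were near 0, and the shares without the miR-486 entry were also computed after seeing the data. A listed name held only in a joined entry was read from that entry.

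No pair of libraries was a repeat of another (smallest chi-square per degree of freedom 156 over 66 pairs). On simulated counts of FAC against CON with log2 changes of 3 in 179 tested entries, the edgeR step found 5.03% at an adjusted p under 0.05 with the observed spread and 88.1% of 193 with a low spread. With the observed spread, 24% of the 179 changed entries and 4.4% of 318 unchanged entries passed the threshold of fold change and unadjusted p. Wilson 95% intervals of the miRNA share were at most 0.0362 percentage points wide, and intervals and floors cover counting error only. Same-numbered libraries of different groups deviated together no more than others (mean r 0.00421 over 18 pairs, beside -0.00202 over 36 pairs of different number). With the wide spread between libraries this cannot exclude a shared culture or batch, and the titles give only a number. Figures were drawn with matplotlib 3.10.9.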

Additional observations from a re-analysis of the deposited data

How the results depend on the processing

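The results turned on what the counts are divided by. Scaled to library totals, 3, 2, 2, 0 and 0 of the 5 entries passed the threshold in FAC against CON, DFO against FAC, VE against FAC, DFO against CON and VE against CON, and limma on log2(RPM + 1) called 5, 3, 4, 0 and 0, in place of 0, 0, 1, 1 and 1. DESeq2 called 2 in VE against CON, total miRNA counts alone called 1 in DFO against FAC, and 2 entries passed the test of any difference with library totals. With library totals the following log2 fold changes turned. In FAC against CON these were 2.55 for miR-143-3p, 3.00 for miR-199a-5p and 2.49 for the joined miR-199a-3p and miR-199b-3p entry. In DFO against CON they were 0.57 for miR-143-3p, 0.49 for miR-145a-5p, 0.51 for miR-199a-5p and 0.82 for the joined entry, in VE against CON 1.10 for miR-145a-5p and 0.57 for miR-199a-5p, and in DFO against FAC -0.97 for miR-214-3p. On log2(RPM + 1), FAC against CON turned to 3.00 for miR-143-3p, 2.99 for miR-199a-5p and 2.78 for the joined entry. DFO against CON turned to 1.06 for miR-143-3p, 0.44 for miR-145a-5p, 0.13 for miR-199a-5p and 1.32 for the joined entry, VE against CON to 0.21 for miR-143-3p, 1.66 for miR-145a-5p and 0.63 for miR-199a-5p, and DFO against FAC to -1.40 for miR-214-3p. Total miRNA counts alone turned miR-214-3p to -0.25 in DFO against FAC. The causes were not tested beyond the change of divisor. With a replicate block, 0, 0, 1, 1 and 1 entries passed the threshold, as without it, miR-143-3p stood at -1.88 in VE against CON, and the values of miR-145a-5p in FAC against CON (-0.21) and miR-214-3p in DFO against FAC (-0.74) turned. The titles give only a number, so whether the block pairs shared cultures is not known. DESeq2 gave no p for miR-199a-5p.

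Leaving out 1 library at a time gave 0 to 0, 0 to 2, 1 to 1, 0 to 2 and 1 to 2 entries past the threshold in the 5 comparisons and 1 to 2 in the test of any difference. miR-143-3p ranged from -2.28 to -1.35 in VE against CON (adjusted p 0.000282 to 0.132 in edgeR), from -1.78 to -1.29 in VE against FAC (adjusted p 8.63e-05 to 0.383) and from -0.81 to 0.15 in FAC against CON. In FAC against CON, miR-145a-5p ranged from -0.28 to 0.83, the joined entry from -0.94 to 0.0903 and miR-199a-5p from -1.67 to 5.19. miR-199a-5p ranged from -8.64 to 4.10 in DFO against CON and from -2.75 to 3.99 in VE against CON. miR-214-3p ranged from -0.13 to 3.01 in DFO against CON, from -1.19 to 0.94 in DFO against FAC and from -0.24 to 2.20 in VE against CON. Of 150 such log2 values, 130 kept their direction and side of the threshold, and of 220 under the other settings 180 did. The spread between libraries (biological coefficient of variation 1.57) limits what 3 libraries a group can show for the 4 low entries.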
